A study of Mus musculus with 16 samples.

Results

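Metallothioneins and the proteins that move zinc across membranes were followed in mouse intestine that had lost Cul4b, the X-linked gene of a cullin scaffold of ubiquitin ligases. The genes were chosen by name: Mt1, Mt2, Mtf1, Slc30a1, Slc30a2, Slc39a4 and Slc39a5. All 7 were found, in count tables of 52636 to 54532 genes. They were picked with KO against WT values of these same libraries in view, so those values are given as a description, with no p. How many of them the fit over all genes called is stated for completeness, and nothing is read from it.

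The RNA-seq series held 16 libraries from C57BL/6 mice in 3 experiments. Small-intestinal crypts were taken from pVillin-Cre; Cul4b fn/Y males (KOIEC, 4 libraries) and from Cul4b fn/Y WT males without Cre (4 libraries), and were released from the tissue with EDTA. Small-intestinal organoids, grown in Matrigel, came from the same KOIEC line (2 libraries) and its WT (2 libraries), here the Villin experiment. A second pair of organoid groups came from CAG-CreERT2; Cul4b fn/Y mice (KOCAG, 2 libraries), treated with tamoxifen before sequencing, and their WT (2 libraries), here the CAG experiment. The villin promoter drives Cre in the intestinal epithelium from before birth. CAG-CreERT2 is active in most cells once tamoxifen or its metabolite is given, and whether the WT organoids of the CAG experiment carried it or received the drug is not stated. Adult mice were used for most of the study, with no age given per library, and the study's wording counts the KOIEC crypt libraries as separate mice. For organoids nothing further than biological replicates is said, so p-values there measure the spread between libraries that may share a mouse or culture.

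Total counts per library ran from 7348191 to 16881395, so that 3 counts, taken as the floor, amounted to 0.178 to 0.408 CPM (counts scaled to a common library total). Cul4b checked the labels: its mean was 33.9 CPM in WT and 1.43 CPM in KOIEC crypts, 78.2 and 1.72 CPM in the Villin organoids, and 71.5 and 4.26 CPM in the CAG organoids. The crypt libraries differed in mitochondrial ribosomal RNA, from 18.9 to 2873 CPM, with 3 of 4 KOIEC libraries and 1 of 4 WT libraries under 100 CPM. Epithelial markers such as Epcam and Cdh1 were high in every library, with a summed level of 5 markers from 4828 to 9214 CPM. Of these 5, 1 was higher in KOIEC crypts, and 2 were higher and 1 lower in KOCAG organoids. Of all tested genes, 6.96% were called in crypts (4.3% higher), and 31.5% in CAG organoids (18.1% higher and 13.4% lower). Leukocyte markers (Ptprc, Cd3e, Cd8a, Gzma) summed to 17.2 to 87.5 CPM in WT crypts, to 36.5 to 275 CPM in KOIEC crypts and to at most 0.769 CPM in organoids. Of these 4 markers 0 passed the test in crypts, at log2 fold changes of 1.00 to 1.70. In bulk RNA, fewer cells of a type and less RNA per cell cannot be told apart.

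Metallothioneins are small cysteine-rich proteins that bind zinc and copper, and their genes are among the most zinc-responsive in mammals. MTF1 is the zinc-sensing transcription factor behind that response: with zinc bound it enters the nucleus and binds metal response elements, short sequences in the promoters of Mt1, Mt2 and Slc30a1. SLC30 proteins lower cytosolic zinc by exporting it from the cell or into vesicles, and SLC39 proteins raise it. In the small intestine SLC39A4 takes up dietary zinc at the apical face of enterocytes, while Paneth cells keep zinc in their granules and use SLC30A2 to load it.

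Promoter windows of 4 genes are shown. Those of Mt1, Mt2 and Slc30a1 were taken for their known metal response elements. That of Slc30a2 was taken because the gene held the largest difference in the CAG experiment. The choice rests in part on values of these data, and the part of MTF1 in the differences was not tested. RefSeq promoters on GRCm38.p6 were found for 6 of the 7 genes. A core of the metal response element was searched as TGCACNC or TGCGCNC on both strands, in 250 bases before and 50 after the annotated start, and overlapping matches were counted as 1 site. At least 1 site was present in 25.7% of 32817 promoters, at least 2 in 6.15%, at least 3 in 1.31% and at least 4 in 0.296%. The 250 bases before the start and the first 30 after it are printed 5′ to 3′, with matches in capitals. The start is that of the RefSeq transcript. For Slc30a2 it lies downstream of the gene start in the count tables, so the whole stretch printed, with both of its sites, is inside the gene span given for Slc30a2 below. Bases before that gene start were not searched.
Mt1, chr8:94178839-94179118, plus strand: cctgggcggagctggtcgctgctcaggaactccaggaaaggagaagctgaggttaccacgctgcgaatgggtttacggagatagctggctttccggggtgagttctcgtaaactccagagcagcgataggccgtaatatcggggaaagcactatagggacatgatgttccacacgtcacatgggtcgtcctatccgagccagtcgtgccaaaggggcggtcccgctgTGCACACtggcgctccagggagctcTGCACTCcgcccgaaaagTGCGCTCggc
Mt2, chr8:94172368-94172647, plus strand: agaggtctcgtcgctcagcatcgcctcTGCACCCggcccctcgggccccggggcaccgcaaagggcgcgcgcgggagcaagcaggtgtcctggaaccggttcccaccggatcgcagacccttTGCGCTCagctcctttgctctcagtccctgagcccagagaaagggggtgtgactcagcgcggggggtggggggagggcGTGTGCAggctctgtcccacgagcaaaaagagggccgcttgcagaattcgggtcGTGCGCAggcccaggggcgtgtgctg
Slc30a1, chr1:191906531-191906810, plus strand: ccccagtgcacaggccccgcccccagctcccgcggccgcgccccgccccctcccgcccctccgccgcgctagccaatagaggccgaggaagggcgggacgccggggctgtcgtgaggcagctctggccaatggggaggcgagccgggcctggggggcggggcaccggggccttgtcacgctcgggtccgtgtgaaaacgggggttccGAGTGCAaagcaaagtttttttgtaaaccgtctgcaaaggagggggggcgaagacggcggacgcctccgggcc
Slc30a2, chr4:134343216-134343495, plus strand: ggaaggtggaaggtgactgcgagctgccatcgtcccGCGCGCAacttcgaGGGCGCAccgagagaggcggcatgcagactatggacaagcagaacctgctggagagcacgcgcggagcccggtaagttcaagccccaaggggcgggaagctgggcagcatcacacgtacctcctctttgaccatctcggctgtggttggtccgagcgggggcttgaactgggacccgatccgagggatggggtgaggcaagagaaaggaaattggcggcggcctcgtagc

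The Mt1 window held 3 sites, the Mt2 window 4, and those of Slc30a1 and Slc30a2 held 2 each. In Mt1 they crowded around the annotated start, at 23 to 17 bases before it and at 3 to 9 and 21 to 27 bases after it. The annotated exons of Mt1 covered its whole span, at an exonic length of 1246 bases. Whether most Mt1 transcripts begin at this annotated start was not tested. Bases beyond the window were not searched, so the sites counted may not be all those near the start in use. In Mt2 they were spread over the window, from 223 bases before the start to 11 bases after it. The second Slc30a1 site lay 31 to 37 bases after the start and is not printed. The Mtf1 window held 0 sites, and the 2 annotated Slc39a5 windows held 0 and 1. A match is a description of the letters and not a bound site.

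Mt1 and Mt2 are neighbours on chromosome 8, both on the plus strand, with 5513 bases between them. Mt1 (ENSMUSG00000031765) spans chr8:94179082-94180327 and Mt2 (ENSMUSG00000031762) spans chr8:94172664-94173568. These spans are those of GENCODE M21 on GRCm38, as were the spans of 6 of the 7 genes in all 3 tables. Slc39a4 was annotated differently between tables, with an exonic length of 2224 bases in the crypt and CAG tables and 3106 bases in the Villin organoid table, so its counts are not on the same footing across them.

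Mt1 was higher in the KO libraries than in the WT libraries of all 3 experiments. In WT crypts its level was 124.8, 173.7, 128.9 and 127.8 CPM, and in KOIEC crypts it was 293.8, 327.4, 392.0 and 379.1 CPM. The groups did not overlap, and the lowest KOIEC library lay well above the highest WT library. The means were 139 ± 23.3 CPM (SD, n = 4) in WT and 348 ± 45.7 CPM (SD, n = 4) in KOIEC crypts, a log2 fold change of 1.33 with an SE of 0.15. The KOIEC libraries with the most Mt1, replicates 3 and 4, were also those with the highest leukocyte sums, 275 and 146 CPM. Their sums of enterocyte markers, given below, were the highest too, 17714 and 18019 CPM. KOIEC replicate 1 had a leukocyte sum of 36.5 CPM and 293.8 CPM of Mt1. WT replicate 4 had a leukocyte sum of 87.5 CPM and 127.8 CPM of Mt1. The part of these cells was not tested.

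In organoids Mt1 was higher than in crypts in both genotypes. The Villin experiment gave 553.0 and 360.1 CPM in WT and 582.1 and 594.1 CPM in KOIEC organoids, a log2 fold change of 0.37 with an SE of 0.25. Both KOIEC libraries lay above both WT libraries, but the WT libraries lay farther apart than the nearest WT and KOIEC libraries. The log2 fold change was 0.08 without WT replicate 2 and 0.71 without WT replicate 1. In the CAG experiment Mt1 was at 615.3 and 682.3 CPM in WT and at 1375 and 1150 CPM in KOCAG organoids. No library of the groups overlapped, and the log2 fold change was 0.96 with an SE of 0.11. The KOCAG organoids held the highest Mt1 level of the series, 0.114% and 0.135% of all counts.

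**Figure D1:**
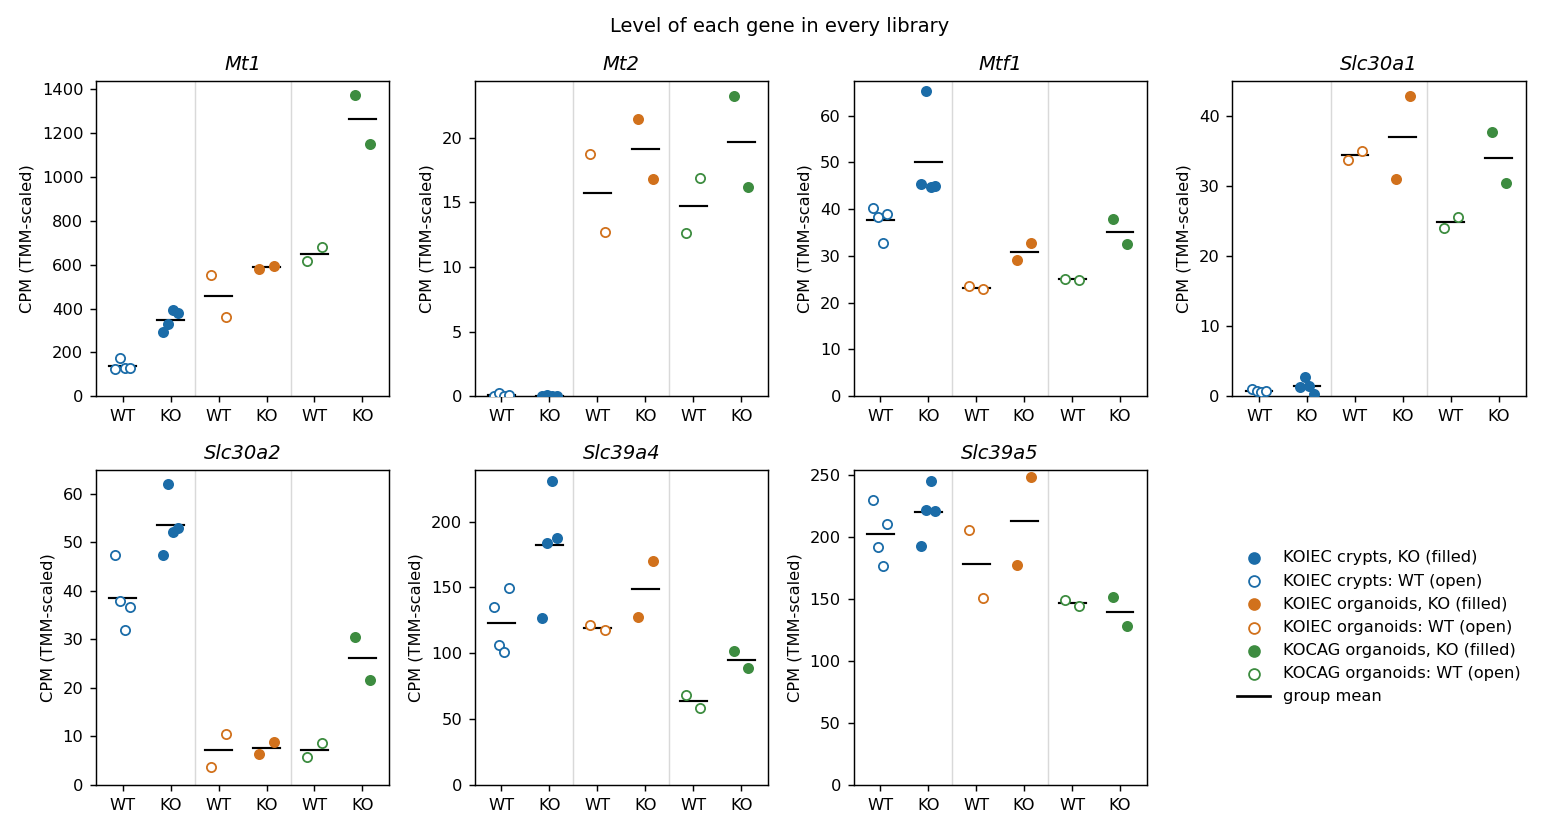
Level of each of the 7 genes in CPM (TMM-scaled, vertical axis from 0) in every library, by experiment and genotype, with open points for WT, filled points for KO and a bar at the group mean. Mt1 is separated between WT and KO in crypts and in the CAG experiment, while Mt2 and Slc30a1 lie near 0 in all 8 crypt libraries.

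Mt2, the second metallothionein of the intestine, barely appeared in crypts. Its counts were 0, 3, 0 and 1 in the WT and 0, 1, 0 and 0 in the KOIEC crypt libraries, all at or under the floor, so no fold is given. In the organoid libraries its counts were 105 to 356. Its level in the Villin experiment was 18.8 and 12.7 CPM in WT and 21.4 and 16.8 CPM in KOIEC organoids. In the CAG experiment it was 12.6 and 16.8 CPM in WT and 23.2 and 16.2 CPM in KOCAG organoids. The genotypes overlapped in both organoid experiments, with log2 fold changes of 0.28 (SE 0.30) and 0.40 (SE 0.21).

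Mt2 was a small share of the metallothionein counts everywhere. Of the counts of Mt1 and Mt2 together it made up 2.75% to 3.55% in the Villin organoids and 1.38% to 2.41% in the CAG organoids. In the KOCAG libraries the share was 1.66% (95% exact binomial interval 1.42 to 1.93) and 1.38% (1.18 to 1.61). In the WT libraries beside them it was 2.01% (1.65 to 2.43) and 2.41% (2.02 to 2.85). Both KOCAG shares lay below both WT shares. The intervals cover counting error only. Gm45774 overlaps Mt2 on the other strand and the use of strand is not given, so how much of Mt2 was counted is not known. In crypts the highest share was 0.163%, and in the libraries with 0 counts of Mt2 the exact interval reached at most 0.264%.

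Low crypt counts of this kind were found for few other genes, most of them close to each other. Among 8417 genes at 10 CPM or more in all 8 organoid libraries, 37 had at most 3 counts in each of the 8 crypt libraries, and 30 of these 37 lay within 100 kb of another of them. The reverse, 10 CPM or more in every crypt library and at most 3 counts in every organoid library, held for 4 of 8413 genes. Mt2 was 1 of the 37. These limits, and the genes named here around Mt2, Slc30a1 and Slc30a4, were chosen after the values were seen. Gm45774, which overlaps Mt2 on the other strand, had 8 counts over all crypt libraries, against a mean of 1.07 and 1.42 CPM in the organoid experiments. Beyond it on either side, Mt1, Bbs2 and Nup93 were counted in crypts, at means of 243, 7.38 and 55.7 CPM.

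Slc30a4, a vesicular zinc exporter, had 0 counts in every crypt library and means of 144 and 96.1 CPM in the Villin and CAG organoid experiments. AA467197, its neighbour at 40041 bases, also had 0 counts in every crypt library, against 39.9 and 26.9 CPM. Spata5l1, just beyond it, was at 0.577 CPM in crypts against 13.1 and 13.8 CPM. Bloc1s6, at 35839 bases on the other side, was at 33.0 CPM in crypts and 35.7 and 37.7 CPM in organoids. Around Slc30a1 the overlapping 1700034H15Rik was at 0.0530 CPM in crypts, against 1.52 and 1.92 CPM, and Nek2 was at 6.29 CPM against 66.8 and 61.6 CPM.

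Crypt values of Mt2, Slc30a1 and Slc30a4 near 0 are not read as a lack of the transcript, and the cause was not tested. Of Mt2, 3 of its 573 distinct 31-base words occurred in transcripts of another gene, Pip5k1a. Mt1 shared 0 of 1273 such words. Without strand in the counting notes, reads of Mt2 and Gm45774 cannot be told apart where the genes overlap.

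**Figure D2:**
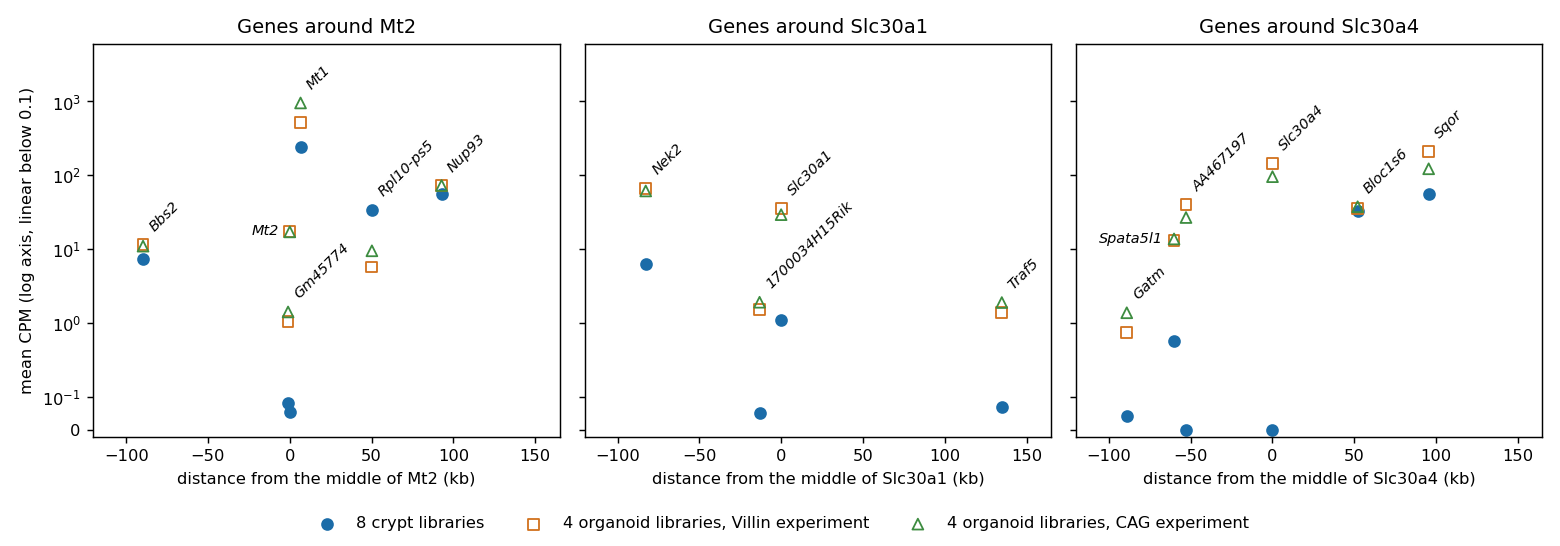
Mean CPM (vertical log axis, linear below 0.1) of genes around Mt2, Slc30a1 and Slc30a4 against the distance from the middle of each gene in kb, for 8 crypt libraries, 4 Villin organoid libraries and 4 CAG organoid libraries. Slc30a4 and AA467197 sit at 0 in crypts beside Bloc1s6, whose levels in the 3 experiments are close together.

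Mtf1 (ENSMUSG00000028890, chr4:124802104-124849800), the zinc sensor, was higher in the KO libraries of each experiment. WT crypts held 40.3, 38.4, 32.8 and 39.1 CPM and KOIEC crypts held 45.3, 65.3, 44.8 and 45.04 CPM. The groups did not overlap, and 1 KOIEC library stood far above the other 3. The means were 37.6 ± 3.33 CPM and 50.1 ± 10.1 CPM (SD, n = 4 each), with a log2 fold change of 0.41 and an SE of 0.14. Without that library, KOIEC replicate 2, it was 0.26. Villin organoids held 23.7 and 22.8 CPM in WT and 29.1 and 32.7 CPM in KOIEC, a log2 fold change of 0.41 with an SE of 0.19. CAG organoids held 25.1 and 24.9 CPM in WT and 37.8 and 32.6 CPM in KOCAG, a log2 fold change of 0.49 with an SE of 0.13. WT and KO libraries were apart in each of the 3.

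Slc30a1 (ENSMUSG00000037434, chr1:191906767-191913247) encodes the zinc exporter of the plasma membrane. It was counted 12, 8, 7 and 10 times in WT crypts and 12, 36, 14 and 3 times in KOIEC crypts, so the crypt fold change of 0.87 on the log2 scale has an SE of 0.55. It was 0.32 without KOIEC replicate 2. Its level in Villin organoids was 33.8 and 35.0 CPM in WT and 31.03 and 42.9 CPM in KOIEC, with overlapping groups and a log2 fold change of 0.10 (SE 0.23). In CAG organoids the values were 24.1 and 25.5 CPM in WT and 37.7 and 30.5 CPM in KOCAG, which did not overlap, with a log2 fold change of 0.45 (SE 0.14) that was 0.28 without KOCAG replicate 1.

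Slc30a2 (ENSMUSG00000028836, chr4:134343181-134354484), the exporter that fills secretory vesicles, held the largest difference of the 7 genes in the CAG experiment. It was at 5.66 and 8.55 CPM in WT and at 30.6 and 21.6 CPM in KOCAG organoids, a log2 fold change of 1.87 with an SE of 0.24. Both KOCAG libraries lay far above both WT libraries. In the Villin experiment the values were 3.74 and 10.5 CPM in WT and 6.39 and 8.78 CPM in KOIEC organoids, with the KOIEC values between the WT values and a log2 fold change of 0.09 (SE 0.55). Crypts held more: 47.4, 38.0, 32.0 and 36.7 CPM in WT and 47.4, 62.1, 52.1 and 53.0 CPM in KOIEC. The crypt groups met at a WT and a KOIEC library of nearly equal level, and the log2 fold change was 0.48 (SE 0.13).

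Slc39a4 (ENSMUSG00000063354, chromosome 15, minus strand) is the main intestinal zinc importer. WT crypts held 134.8, 106.1, 100.9 and 149.8 CPM and KOIEC crypts held 126.4, 183.8, 230.8 and 187.6 CPM, so that 1 KOIEC library lay inside the WT range. The log2 fold change was 0.57 with an SE of 0.19. Villin organoids held 121.2 and 117.8 CPM in WT and 127.4 and 170.2 CPM in KOIEC, a log2 fold change of 0.32 (SE 0.20). CAG organoids held 68.2 and 58.6 CPM in WT and 101.5 and 88.6 CPM in KOCAG, a log2 fold change of 0.58 (SE 0.11). The groups were apart in both organoid experiments.

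Slc39a5 (ENSMUSG00000039878, chr10:128395931-128401229), the importer of the basolateral face, overlapped between WT and KO everywhere. It ranged from 177 to 230 CPM in WT and from 193 to 245 CPM in KOIEC crypts. The Villin organoids ranged from 151 to 205 CPM in WT and from 177 to 248 CPM in KOIEC. In the CAG organoids the ranges were 144 to 149 CPM and 128 to 151 CPM. The log2 fold changes were 0.12 (SE 0.12), 0.26 (SE 0.26) and -0.07 (SE 0.09).

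**Figure D3:**
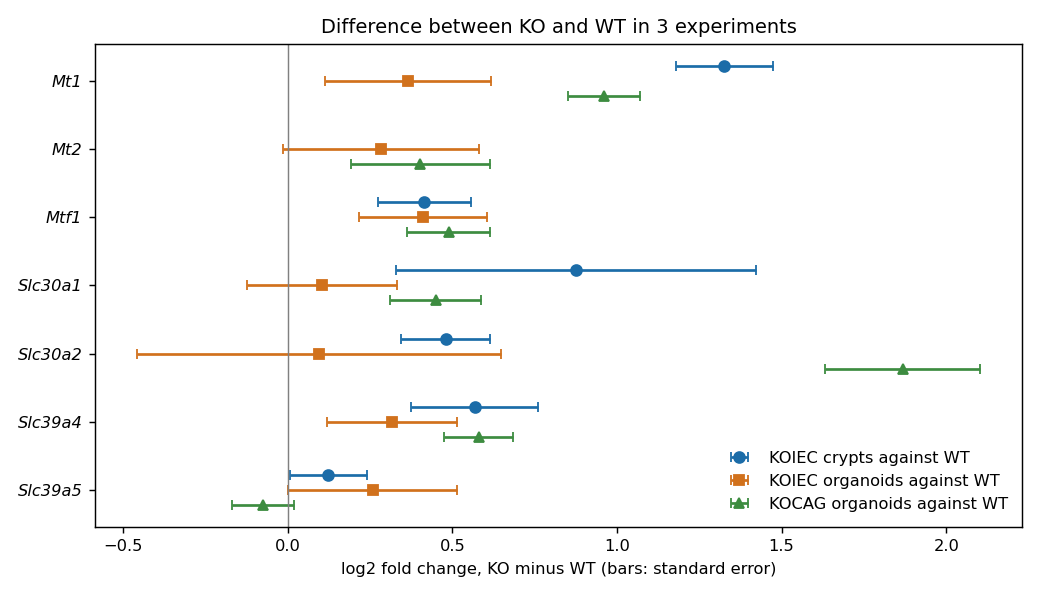
Log2 fold change of KO against WT (horizontal axis, bars are standard errors) of each gene in crypts, Villin organoids and CAG organoids, with no crypt value for Mt2, which was at or under the floor. Mt1 reaches 1.33 in crypts and Slc30a2 reaches 1.87 in the CAG organoids, while Slc39a5 lies between -0.07 and 0.26.

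Counted at an adjusted p under 0.05, 1 of the 6 members tested in crypts was called higher in KO (Mt1), where 4.3% of all tested genes were higher and 2.66% lower. In Villin organoids 0 of 7 were called, where 0.00717% of all tested genes were called at all, and 650 genes had an unadjusted p under 0.05. In CAG organoids 5 of 7 were called higher (Mt1, Mtf1, Slc30a1, Slc30a2 and Slc39a4), where 18.1% of all tested genes were higher and 13.4% lower. Groups without overlap were found for 2 of 6, 3 of 7 and 5 of 7 members, where 17.5%, 38.9% and 69.7% of all tested genes had them. As the members were chosen from these contrasts, nothing is read from these counts. The crypt call of Mt1 was lost without KOIEC replicate 2 or 3, leaving 0 members called, and 3 were called without KOIEC replicate 1. Of all tested genes, 2 were called without KOIEC replicate 2, 2 without KOIEC replicate 3 and 18% without KOIEC replicate 1. In Villin organoids the log2 fold change of Slc39a4 was 0.51 without KOIEC replicate 1 and 0.09 without KOIEC replicate 2. In CAG organoids, without WT replicate 1 or 2, it was 0.48 and 0.48 for Mtf1 and 0.40 and 0.49 for Slc30a1.

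Within classes of mitochondrial ribosomal RNA the crypt values of Mt1 rest on few libraries. In libraries under 100 CPM of it, KOIEC minus WT was 1.42 on the log2 CPM scale (3 against 1 library), and between 100 and 2000 CPM it was 1.57 (1 against 1). The class above 2000 CPM held WT replicates 2 and 3 and no KOIEC library, so it gave no comparison. With this class as a covariate 0 members were called, and 2 of all tested genes were.

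Compared per kilobase of exonic length, the highest places went to the same genes in every group, and the lower places differed between groups. Mt1 came first, at 111 ± 18.7 CPM per kb in WT crypts and 1013 ± 127 CPM per kb in KOCAG organoids (SD). Slc39a5 and Slc39a4 came next, at 62.8 to 99.0 and 28.5 to 81.9 CPM per kb. In WT crypts the ranges of Mt1 and Slc39a5 overlapped, and in KOIEC crypts those of Slc39a5 and Slc39a4 did. Mt2 was the fourth gene in all 4 organoid groups, at 25.1 to 33.5 CPM per kb, overlapping Slc39a4 in the WT organoids of the CAG experiment. This place rests on counts that the overlap of Mt2 with Gm45774 may affect. The fourth place in crypts was that of Slc30a2, at 10.8 and 15.05 CPM per kb. Slc30a1, Mtf1 and, in organoids, Slc30a2 filled the lower places, between 1.99 and 7.33 CPM per kb in organoids. Slc30a2 was the last of the 7 in WT organoids of both experiments and in KOIEC organoids, and the fifth in KOCAG organoids, where its range overlapped that of Slc30a1.

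**Figure D4:**
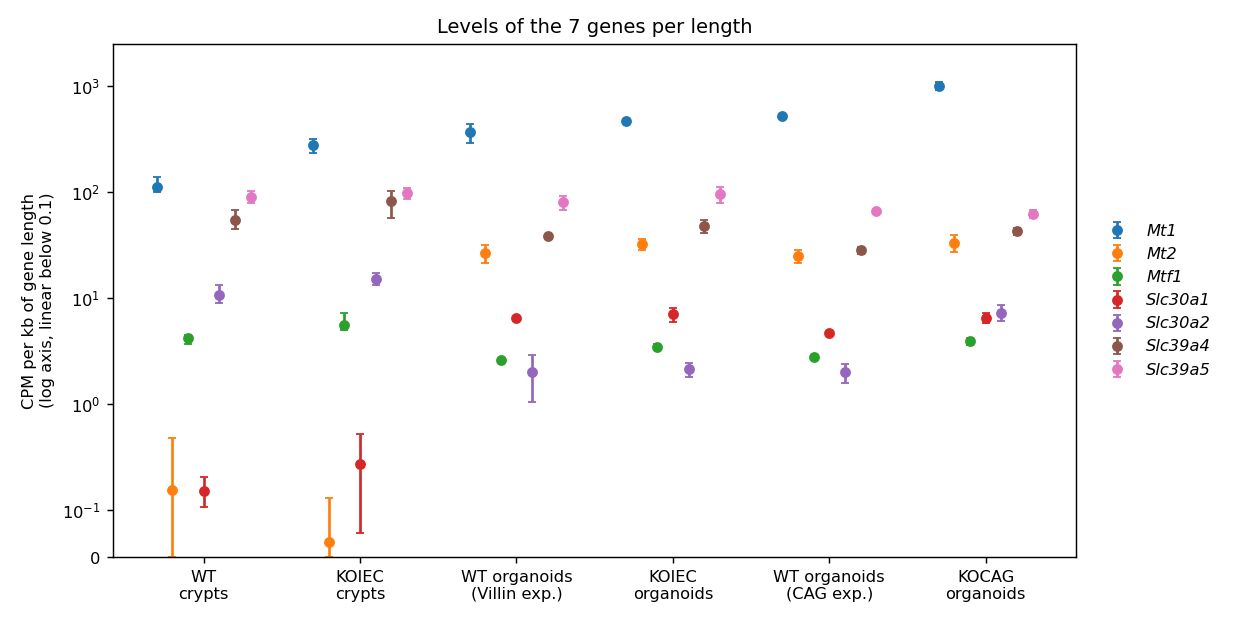
Mean level per kilobase of exonic length (vertical log axis, linear below 0.1; bars span the lowest to the highest library) of the 7 genes in the 6 groups. Mt1 is on top in each group, and Slc30a1 and Mt2 fall below 1 in crypts and lie above 4 in organoids.

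The other genes of zinc and metal handling were counted from lists made by known function, with earlier results of these data known. Their shares are set beside those of all tested genes as a description. Of 5 SLC30 exporters tested in crypts 0 passed the test, and of 11 SLC39 importers 1 rose. That gene was Slc39a9, a zinc importer of the Golgi and plasma membrane, from 113 ± 13.0 to 167 ± 30.6 CPM (SD, n = 4 each; log2 fold change 0.57, SE 0.14, adjusted p = 0.0489). Of 9 genes of copper handling 2 rose. Slc31a1, the high-affinity copper importer, went from 164 ± 20.4 to 263 ± 47.3 CPM (log2 fold change 0.68, SE 0.15, adjusted p = 0.0431). Atp7a, the copper-exporting ATPase, went from 19.5 ± 1.36 to 30.6 ± 6.34 CPM (0.65, SE 0.15, adjusted p = 0.0459). The other targets attributed to MTF1 (Gclc, Slc40a1, Selenow) did not pass the test in crypts.

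Metallothionein genes also carry elements for glucocorticoids and oxidative stress, so targets of both were listed. In crypts 1 of 8 tested NRF2 targets rose, Gclm, a subunit of the enzyme that starts glutathione synthesis, from 61.2 ± 5.11 to 94.0 ± 20.4 CPM (0.62, SE 0.15, adjusted p = 0.0483). Of 7 glucocorticoid targets 2 rose. Sgk1, a kinase that regulates epithelial sodium transport, went from 16.3 ± 9.47 to 57.5 ± 18.6 CPM (1.82, SE 0.41, adjusted p = 0.045), and Tsc22d3, the gene of GILZ, from 32.6 ± 3.93 to 59.9 ± 17.5 CPM (0.88, SE 0.21, adjusted p = 0.0475). As the lists were made with earlier results of these data known, their share is a description. Over all lists 6 of 42 tested genes passed the test in crypts, 14.3%, all higher in KOIEC, where 6.96% of all tested genes passed. The list count was 0 without WT replicate 1, 2 or 3 or without KOIEC replicate 2 or 3. In those fits 0.0145% to 0.147% of all tested genes passed. The list count was 11 without WT replicate 4 or KOIEC replicate 1, where 13.6% and 18% of all tested genes passed. With the ribosomal RNA class as a covariate it was 0, where 0.0149% of all tested genes passed. When libraries were scaled by total count alone it was 2, where 4.73% passed.

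On simulated counts, 4.04% of 2-fold changes were recovered in the Villin organoid design, against 86.5% in the CAG organoid design. In Villin organoids 0 of 46 list genes passed edgeR's test, where 0.00717% of all tested genes did, and DESeq2 also called 0. Without KOIEC replicate 1 the count was 15, where 15.8% of all tested genes then passed. Slc30a4 was at a mean of 123 CPM in WT and 164.9 CPM in KOIEC organoids there (log2 fold change 0.43, adjusted p = 0.856).

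CAG organoids gave 18 of 46 list genes past the test, 39.1%, where 31.5% of all tested genes passed, again a description. Of them 17 rose and 1 fell. Slc30a4 rose from 86.1 ± 1.92 to 106 ± 10.4 CPM (SD, n = 2 each; 0.30, SE 0.09, adjusted p = 0.0321) and was the only 1 of 7 SLC30 exporters to pass. Slc39a9 rose by 0.36 (SE 0.09, adjusted p = 0.0168), as 1 of 11 importers. All 3 tested targets attributed to MTF1 rose. Slc40a1, the iron exporter ferroportin, went from 36.5 ± 7.26 to 78.3 ± 21.7 CPM (1.12, SE 0.18, adjusted p = 0.00142), and Gclc, the catalytic partner of Gclm, by 0.43 (SE 0.08, adjusted p = 0.00279). Of 9 copper genes Atox1, a copper chaperone, rose by 0.52 (SE 0.09, adjusted p = 0.0015).

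Of 10 NRF2 targets 9 rose in the CAG experiment, where 18.1% of all tested genes were higher and 13.4% lower. Gclc is among these 9 and also among the targets attributed to MTF1, and the total of 18 counts it once. Osgin1, an oxidative stress response gene, went from 9.06 ± 0.379 to 34.5 ± 7.04 CPM (1.92, SE 0.18, adjusted p = 6.33e-05), and Slc7a11, the cystine importer, from 8.22 ± 1.75 to 24.99 ± 5.56 CPM (1.59, SE 0.21, adjusted p = 0.000457). Of 7 glucocorticoid targets 3 rose and 1 fell. Sgk1 rose by 3.26 (SE 0.26, adjusted p = 2.2e-05) and Fkbp5, a chaperone of steroid receptors, by 1.23 (SE 0.13, adjusted p = 0.000126), while Nr3c1, the glucocorticoid receptor itself, fell by 0.45 on the log2 scale (SE 0.08, adjusted p = 0.00215). With all 16 libraries in 1 fit only Sgk1 and Osgin1 of the lists passed.

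**Figure D5:**
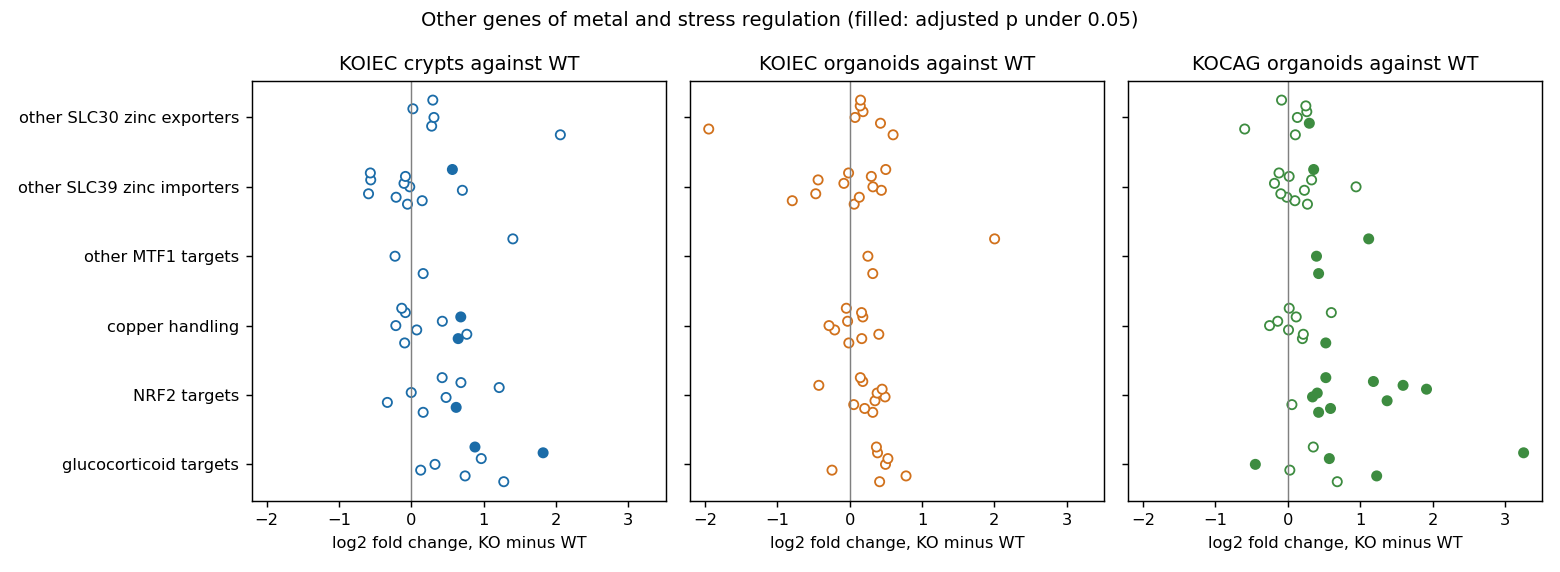
Log2 fold change of KO against WT (horizontal axis) of the other genes of 6 lists of metal, oxidative stress and glucocorticoid regulation in the 3 experiments, with filled points for genes at an adjusted p under 0.05. In CAG organoids 9 of 10 NRF2 targets are filled and to the right of 0, where 31.5% of all tested genes passed. In Villin organoids no point is filled, where 0.00717% of all tested genes passed.

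Of 3 tested genes within 100 kb of Mt1 and Mt2, 0 were called higher in KOIEC crypts and 1 was called lower, where 6.96% of all tested genes were called. Nup93, a nuclear pore gene, averaged 61.7 CPM in WT against 49.6 CPM in KOIEC crypts (log2 fold change -0.32, adjusted p = 0.166). Bbs2, a ciliary gene, was at 8.15 and 6.61 CPM (-0.30, adjusted p = 0.271). Rpl10-ps5, a processed pseudogene inside Nup93 whose counts may hold reads of its parent, fell by 0.47 on the log2 scale (SE 0.10, adjusted p = 0.0431), a call absent without any of WT replicates 1 to 3 or KOIEC replicates 2 to 4. In Villin organoids 0 of 4 passed, where 0.00717% of all tested genes did. In CAG organoids 2 of 4 passed, where 31.5% of all tested genes did. There Nup93 rose by 0.36 (SE 0.11, adjusted p = 0.0323) and Rpl10-ps5 fell by 0.89 (SE 0.25, adjusted p = 0.0207), with neither called without KOCAG replicate 2 or by DESeq2, and Nup93 not called without either WT replicate. Mt3 and Mt4, metallothioneins of brain and stratified epithelium in the same cluster, were too low to test, at means of at most 1.04 CPM. In CAG organoids Mt3 averaged 0.185 CPM in WT and 0.967 CPM in KOCAG, and Mt4 0.250 and 1.04 CPM. The groups did not overlap there, as held for 69.7% of all tested genes. Both genes overlapped between WT and KO in the other experiments.

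The genes whose pattern was most like that of Mt1 were Ddx58, Entpd7, Entpd5, Errfi1 and Parp14. Likeness was the root mean square difference over the 16 libraries of log2 CPM, each less the WT mean of its experiment, over 12478 genes tested in all 3 experiments. It was 0.259 for Ddx58 and 0.277 for Parp14. Slc39a4 was at rank 405, Mtf1 at 805, Slc30a2 at 2578, Slc39a5 at 3563 and Slc30a1 at 4044, and Mt2 had no rank because it was not tested in crypts. This measure takes in the size of the KO against WT difference, which was in view when the members were chosen. The ranks are a description, and nothing is read from them.

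Levels of marker genes are given beside these differences. Of all tested genes, 4.3% were higher and 2.66% lower in KOIEC crypts, and 18.1% were higher and 13.4% lower in KOCAG organoids. In Villin organoids 0.00717% were called at all. The summed level of 9 enterocyte markers, Alpi and Apoa4 among them, was 2189 to 9457 CPM in WT and 8209 to 18019 CPM in KOIEC crypts, with 0 of 9 passing the test. It was 6306 to 11268 and 4337 to 14253 CPM in Villin organoids. In CAG organoids it was 4563 to 4972 CPM in WT and 10319 to 12906 CPM in KOCAG, with 8 of 9 markers higher. Stem cell markers, Lgr5 and Ascl2 first, summed to 1493 to 2339 CPM in WT and 940 to 1506 CPM in KOIEC crypts, with 2 of 5 lower. They summed to 2426 to 3593 and 336 to 1468 CPM in Villin organoids, and to 2819 to 3327 and 2314 to 2713 CPM in CAG organoids, with 2 of 5 lower. The part of these shifts in the differences of Mt1 and Slc39a4 was not tested.

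Paneth cell markers, Lyz1 and Mmp7 first, are given beside Slc30a2. Their sum of 6 genes was 10430 to 18811 CPM in WT and 2051 to 18067 CPM in KOIEC crypts, with 0 of 6 passing the test. It was 2474 to 4126 and 1819 to 2394 CPM in Villin organoids. In CAG organoids it was 4927 to 5360 CPM in WT and 8214 to 8779 CPM in KOCAG, with 5 of 6 higher. In KOIEC crypt replicates 1 to 4 the Paneth sums were 12117, 7727, 2051 and 18067 CPM, beside 47.4, 62.1, 52.1 and 53.0 CPM of Slc30a2. Markers of acinar pancreas, another tissue rich in Slc30a2, summed to at most 3.92 CPM in crypts and to 17.6 to 193 CPM in organoids, where 3 of 5 were at 0. Goblet cell markers rose in CAG organoids (6 of 6), as did enteroendocrine markers (6 of 6), and 0 of 6 of either list passed in the other experiments. Of all tested genes, 18.1% were higher in CAG organoids, while 6.96% were called in crypts and 0.00717% in Villin organoids. Tuft and stromal markers summed to at most 181 and 23.9 CPM, and 1 tested marker of each was higher in CAG organoids. The part of these cells in the differences was not tested.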

How the data were processed

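Count tables, one for each experiment, were deposited by the authors with raw read counts, gene names, spans and exonic lengths in bases. The submitters' processing notes name HISAT2 2.0.5 and featureCounts 1.5.0-p3. The genome build, annotation and use of strand are not given in the sources used here. Library preparation and sequencing were done by a company.

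KO was compared with WT in a separate fit for each experiment. After filterByExpr (minimum count 10) and TMM scaling, edgeR 4.0.16 (R 4.3.3) gave quasi-likelihood F tests, with p-values corrected by Benjamini and Hochberg's method over every gene that passed the filter and called at 0.05. DESeq2 1.42.0 was an alternative, and the closing section gives the others. The SE is the size of the log2 fold change over the root of F. Log2 CPM carried a prior count of 2. The scripts were tested on simulated counts. Named genes were the members, Cul4b, up to 2 called genes per list and direction with the largest fold change, tested genes with any part within 100 kb of Mt1 and Mt2, the first 2 of each marker list shown, and the 5 genes most like Mt1. The members and lists were chosen with earlier results of these data known. Sequences are from RefSeq.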

Additional observations from a re-analysis of the deposited data

Results flagged for a closer look

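Among 14 groups of 4 crypt libraries, 3 held a library that stood apart from the other 3 by Dixon's test on log2 CPM, which chance does in about 1 of 20 groups. Mt1 was at 174 CPM in WT crypt replicate 2 and at 124.8 to 128.9 CPM in the other WT crypts. Mtf1 was at 65.3 CPM in KOIEC crypt replicate 2 and at 44.8 to 45.3 CPM in the other KOIEC crypts. Mt2 was at 0.0763 CPM in KOIEC crypt replicate 2, which is 1 count, and at 0 in the others, a pattern that meets the criterion by its construction and carries no weight in that tally.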

How the results depend on the processing

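Log2 fold changes of the members kept within 1 SD of the replicates in 241 of 249 values over the alternatives, and 6 values, of Slc30a1, Slc30a2 and Slc39a5 and none of them called, had the other sign. In crypts Mt1 lay between 1.24 and 1.49 over all alternatives. In CAG organoids Mt1 lay between 0.81 and 1.08 and Slc30a2 between 1.58 and 2.18. In Villin organoids left-out libraries moved the values further, from 0.08 to 0.71 for Mt1, 0.02 to 0.60 for Mt2, -0.47 to 1.00 for Slc30a2 and 0.09 to 0.51 for Slc39a4. In crypts Slc30a1 was 0.12 when the fit held a term for ribosomal RNA class. The counts of calls moved more. Members called in crypts (1) were 3 with DESeq2, 0 with the replicate block and 0 with the ribosomal RNA class, and 0 to 3 over left-out replicates. In CAG organoids (5) they were 3 with DESeq2, 2 with all 16 libraries in 1 fit and 3 to 6 over left-out replicates, and in Villin organoids (0) they were 0 to 1. List genes called in crypts (6) were 2 with total-count scaling, 12 with DESeq2, 0 with the replicate block, 0 with the class and 0 to 11 over left-out replicates. In Villin organoids (0) they were 1 without a low-count filter and 0 to 15 over left-out replicates, and in CAG organoids (18) they were 2 with all 16 libraries and 12 to 22. Genes beside Mt1 and Mt2 called in crypts (1) were 0 with the block, 0 with the class and 0 to 2 over left-out replicates. In CAG organoids (2) they were 0 with DESeq2, 1 with all 16 libraries and 0 to 3, and in Villin organoids (0) 0 to 1. Leaving out an organoid library leaves 1 in its group, assumed to vary like the other. The causes were not tested.

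The replicate numbers are not known to pair libraries. Deviations of same-numbered crypt libraries correlated at -0.04, 0.19, -0.40 and 0.43, and those of the organoid experiments at 0.34 (Villin) and 0.07 (CAG). With the block 4 of all tested genes were called in crypts, 1 in Villin organoids and 4932 in CAG organoids. Of all tested genes, 934 were called in crypts, against 2282 with DESeq2, 1659 with all 16 libraries, 1479 without a filter and 2 to 2468 over left-out replicates. In Villin organoids 1 was called, against 26, 18, 223 and 0 to 2322. In CAG organoids 4278 were called, against 2539 with DESeq2 and 477 with all 16 libraries. Low counts, of 0 to 3 for Mt2 and 3 to 36 for Slc30a1 per crypt library, limit the precision of those values, although crypt libraries were not shallower than the CAG organoid libraries as a group.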
